A study of Mus musculus with 4 samples.

Results

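Creb5 and 8 of its relatives in the Creb/Atf family of transcription factors (Atf2, Atf7, Creb1, Crem, Atf1, Creb3, Creb3l1 and Creb3l2) were followed in the palatal mesenchyme of mouse embryos with and without Foxf2. Creb5 was chosen by its FPKM in these same embryos, in which it was higher without Foxf2, and the relatives were taken by family to stand beside it. The 9 genes are all present among the 21352 genes of the files, and all 9 passed the filter on low values, as did 11154 genes in all. RNA-seq was done on RFP-positive cells sorted from the palatal shelves of 4 embryos at E13.5, each sequenced as its own library. The controls were of different genotypes, 1 embryo labelled Osr2RFP/+ with no Foxf2 mutation (called Foxf2+/+ here) and 1 embryo labelled Foxf2+/-Osr2RFP/+. The mutants were 2 Foxf2-/-Osr2RFP/+ embryos. Every embryo, controls included, therefore carried 1 Osr2 allele with RFP knocked in, and the sort was made for cells with RFP from this allele. The mice were of mixed background, the embryos were littermates according to the study's methods, and Foxf2 was missing from all tissues of the mutants, not only from the palate.

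Creb/Atf proteins are basic leucine zipper (bZIP) factors that bind DNA as dimers, and the sequence they are best known for is the cAMP response element (CRE). Creb1, Crem and Atf1 are activated by cAMP and protein kinase A. Atf2, Atf7 and Creb5 form a separate branch whose activation domain in Atf2 and Atf7 is phosphorylated by the stress-activated kinases JNK and p38, and whose members also pair with Jun. Creb3, Creb3l1 and Creb3l2 are made as membrane proteins of the endoplasmic reticulum and are released by proteolysis, and Creb3l1 and Creb3l2 are known for their part in collagen secretion by bone and cartilage cells. Creb5 is known from synovial joints, where it takes part in expression of Prg4 (lubricin) in articular cartilage.

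In the build of the files (mm9), the Creb5 entry lies on the plus strand of chromosome 6 (53523368 to 53645826), and its longest transcript in the annotation is made of 7 exons. RefSeq places 2 start sites in Creb5, 286.071 kb apart in mm9, and the Creb5 entry of the files begins at the downstream one. An entry that the files list under another name, 9430076C15Rik (a transcript classed as non-coding, with 5 exons in the annotation), begins 8 bases before the upstream one and runs from 53237289 to 53347210 on the same strand. The newer RefSeq table gives 9430076C15Rik as a synonym of Creb5. Both promoters are shown because for both entries the Foxf2-/- embryos lay above the controls. Each runs from 250 bases before the start site to 50 bases after it and is taken from RefSeq on GRCm38.p6. Each matches the plus strand of chromosome 6 of mm9 at 1 place, and the rest of mm9 was not searched. The upstream window is chr6:53287053-53287352 in GRCm38.p6 (chr6:53237047-53237346 in mm9) with a full CRE, TGACGTCA, in capitals, and the downstream window is chr6:53573124-53573423 (chr6:53523118-53523417 in mm9) with an AP-1 motif, TGACTCA, in capitals.
Creb5 upstream promoter: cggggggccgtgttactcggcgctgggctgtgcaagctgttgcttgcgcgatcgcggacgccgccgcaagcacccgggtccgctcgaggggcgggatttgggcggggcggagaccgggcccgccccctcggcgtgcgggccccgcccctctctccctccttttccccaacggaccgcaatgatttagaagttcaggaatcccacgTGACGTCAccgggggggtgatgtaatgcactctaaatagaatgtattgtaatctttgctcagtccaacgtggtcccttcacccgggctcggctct
Creb5 downstream promoter: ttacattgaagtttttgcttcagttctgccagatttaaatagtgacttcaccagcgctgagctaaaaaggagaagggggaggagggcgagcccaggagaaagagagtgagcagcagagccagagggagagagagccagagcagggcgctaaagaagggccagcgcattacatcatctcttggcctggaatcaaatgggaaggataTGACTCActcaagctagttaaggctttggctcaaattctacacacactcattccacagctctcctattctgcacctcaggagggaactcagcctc

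Each of these motifs begins at position -45 from its start site. Searched on both strands, the CRE (TGACGTCA, the same on either strand) was in 1.79% of 32851 RefSeq promoter windows of this length, and the AP-1 motif (TGACTCA, or TGAGTCA on the other strand) was in 5.20%. A match to either motif is never part of a match to the other, since they differ at the centre. The forkhead motif GTAAACA, the kind of sequence that Fox proteins bind, was searched on both strands as well, and 3.65% of all windows held it. Its variant with A as the first letter, ATAAACA, was in 4.60% of windows. The windows of Creb5 held neither on either strand. Windows were found for 7 of the 9 genes, and those of Atf2, Atf7, Creb1, Atf1, Creb3 and Creb3l2 held none of these motifs. These are matches of letters in a short window and do not show where any factor was bound.

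Creb5 was 4.78 FPKM in the Foxf2+/+ embryo and 5.88 FPKM in the Foxf2+/- embryo, against 12.7 and 15.2 FPKM in the Foxf2-/- embryos. FPKM is the number of fragments per kilobase of transcript and scaled by the number mapped in the library, so levels of different genes can be compared. Both mutants lay far above both controls, and the Foxf2+/- embryo lay slightly above the Foxf2+/+ embryo. The mean was 5.33 ± 0.779 FPKM in the controls (SD, n = 2, 1 of each genotype) and 14.0 ± 1.76 FPKM in the mutants (SD, n = 2). On the log2(FPKM + 0.1) scale, on which all differences below are given, this is a difference of 1.38, or 2.60-fold. It was 2.87-fold when the Foxf2+/+ embryo was the only control and 2.35-fold when the Foxf2+/- embryo was. The 2 controls differed by 0.29 and the 2 mutants by 0.26 on the log2 scale. These values led to the choice of Creb5 and are given as a description without a test. The estimated mean read depth over the Creb5 transcript was 6.49, 9.48, 17.7 and 23.6 in the same order of embryos, so the gene was covered several times over in every library. In sorted cells, more cells with Creb5 and more Creb5 RNA per cell cannot be told apart. The plot of levels by embryo shows Creb5 as the 1 row of 9 in which the mutants stand well apart from the controls.

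**Figure D1:**
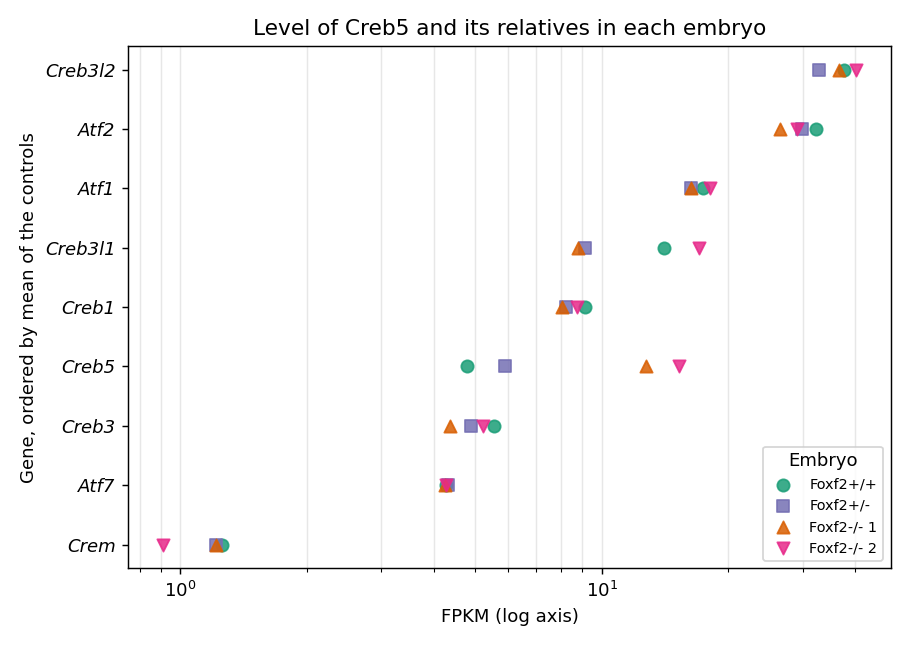
FPKM (log axis) of Creb5 and its 8 relatives in each of the 4 embryos, 1 point per embryo, with genes ordered by the mean of the controls. The Creb5 points of the Foxf2-/- embryos are at 12.7 and 15.2 FPKM and those of the controls at 4.78 and 5.88 FPKM, while the Atf7 points of all 4 embryos lie between 4.24 and 4.33 FPKM.

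Markers of blood, and at much lower levels those of endothelium, moved with Creb5. The 5 blood and macrophage markers summed to 18.8 FPKM in the Foxf2+/+ embryo, 63.4 FPKM in the Foxf2+/- embryo, and 63.9 and 143 FPKM in the mutants, the same order of embryos as for Creb5. Most of this sum was globin, of which Hbb-b1 was 6.97, 22.1, 33.0 and 67.5 FPKM and was the 1 gene of the 5 with a difference of more than 1.5-fold from each control. Hba-a1 was 9.83, 38.7, 28.2 and 72.2 FPKM, higher in the Foxf2+/- embryo than in the first mutant. Csf1r of macrophages was 1.91, 2.50, 2.56 and 2.97 FPKM, while the leukocyte marker Ptprc did not exceed 0.221 FPKM. The 5 endothelial markers summed to 0.404, 0.608, 0.893 and 1.503 FPKM in the order of embryos above. Of these, Cdh5 (0.0456, 0.0236, 0.116 and 0.236 FPKM), Kdr (0.104, 0.132, 0.219 and 0.299 FPKM) and Emcn (listed at 0, then 0.346, 0.450 and 0.812 FPKM) lay above both controls in both mutants, while Pecam1 and Tek did not. Sox10, a marker of neural crest and glia, was 0.142 and 0.156 FPKM in the controls and 0.469 and 0.352 FPKM in the mutants. All these markers of endothelium and glia were under the filter. The part of these other cells in the difference in Creb5 was not tested.

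The upstream entry 9430076C15Rik was 0.454 FPKM in the Foxf2+/+ embryo, 0.970 FPKM in the Foxf2+/- embryo, and 1.70 and 2.20 FPKM in the mutants. It was low throughout, and the mutants again lay above both controls. The difference was 1.40 on the log2 scale, 1.88 relative to Foxf2+/+ and 0.93 relative to Foxf2+/-, more than 1.5-fold from each control. The mean of this entry was 0.712 FPKM in the controls and 1.95 FPKM in the mutants, so it passed the filter only through the mutants. It is also listed as a synonym of Creb5, which was chosen by its rise, and is therefore described without a test. The Creb5 entry exceeded the upstream entry by 10.5, 6.07, 7.50 and 6.93 times in the Foxf2+/+, Foxf2+/- and the 2 Foxf2-/- embryos. With both entries added together the level was 5.24, 6.85, 14.4 and 17.4 FPKM, a 2.62-fold difference between mutants and controls, close to that of the Creb5 entry alone. This sum was made after the values had been seen.

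Besides this upstream entry, the files hold 13 genes within 1000 kb of the Creb5 entry, of which 8 had a mean of at least 1 FPKM. By the criterion used throughout, that the mean of the mutants differ by more than 1.5-fold from each control in the same direction, 1 of the 8, Jazf1, was higher and 0 were lower. Over all genes tested, 0.717% were higher and 0.681% lower by this criterion. Jazf1, a zinc finger protein of chromatin complexes, ends 504.8 kb upstream of the Creb5 entry and lies nearer to the upstream start site. It was 3.14 and 4.61 FPKM in the Foxf2+/+ and Foxf2+/- embryos and 7.54 and 8.43 FPKM in the mutants. Its log2 difference was 1.05 and its adjusted p 0.125 (limma, Benjamini-Hochberg over all genes tested). Without the Foxf2+/- embryo the adjusted p was 0.033, and without the Foxf2+/+ embryo it was 0.418. Tril, an accessory protein of Toll-like receptor signaling and the nearest gene downstream at 119.6 kb, was 42.8, 46.7, 48.9 and 47.1 FPKM in the order of embryos above, a log2 difference of 0.10. Of the other 6, Hibadh (a mitochondrial enzyme of valine breakdown) was 7.55 and 7.24 FPKM in the controls and 5.13 and 5.97 FPKM in the mutants, Tax1bp1 (an autophagy receptor) 31.9 and 30.3 against 26.4 and 26.9 FPKM, and Scrn1 6.06 and 5.27 against 4.59 and 4.22 FPKM. The mutants lay below both controls in these 3, with log2 differences of -0.41, -0.22 and -0.35, none past the criterion. They also did so for Plekha8 (6.93 and 6.71 against 6.36 and 6.25 FPKM, log2 difference -0.11), and for 35.8% of all genes tested. For Fkbp14 and 2410066E13Rik the groups overlapped, with log2 differences of -0.10 and -0.11. The remaining 5 genes of the interval were under 1 FPKM in every embryo.

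**Figure D2:**
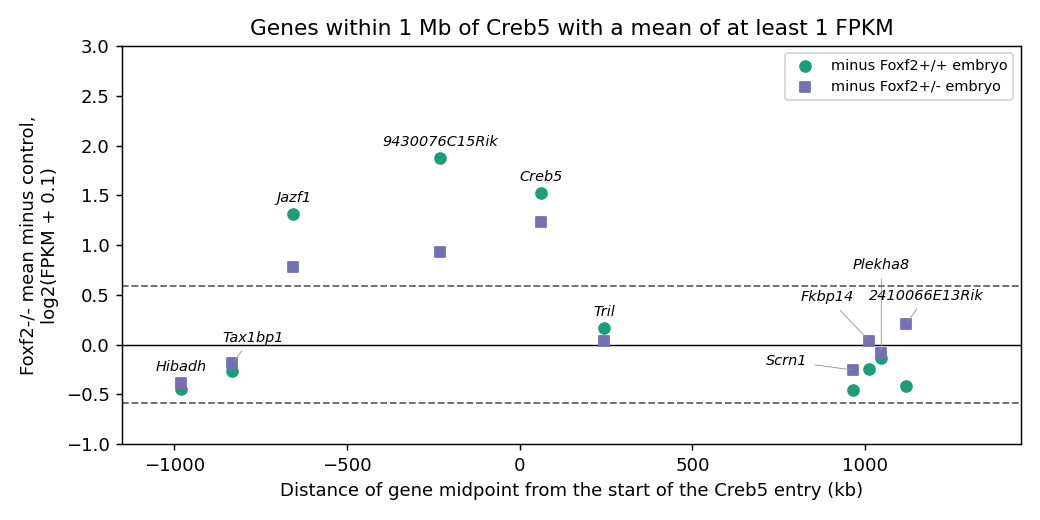
Log2 difference of the Foxf2-/- mean from the Foxf2+/+ embryo (circles) and from the Foxf2+/- embryo (squares) for Creb5, its upstream entry 9430076C15Rik and the 8 other genes tested within 1000 kb, placed by the distance of each gene's midpoint from the start of the Creb5 entry in kb. Only Creb5, 9430076C15Rik and Jazf1 have both points beyond the dashed 1.5-fold lines, and Tril, the nearest downstream gene, has values of 0.16 and 0.04.

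Atf2 and Atf7 are the closest relatives of Creb5. Atf2 was 32.3 FPKM in the Foxf2+/+ embryo, 30.0 FPKM in the Foxf2+/- embryo, and 26.5 and 29.1 FPKM in the mutants. Both mutants lay slightly below both controls, as they did for 35.8% of all genes tested. Both mutants lay above both controls for 9.89%, so that 45.7% of all genes had no overlap between the groups. Of the 8 relatives Atf2 was the 1 without overlap. The log2 difference was -0.16 (95% interval -0.38 to 0.06, adjusted p = 0.505, limma). Atf2 has 2 transcript entries. NM_009715 was 11.2 FPKM in the Foxf2+/+ embryo and 4.70 FPKM in the Foxf2+/- embryo, against 5.13 and 4.25 FPKM in the mutants, while NM_001025093 was 21.2, 25.3, 21.4 and 24.9 FPKM. Thus the Foxf2+/+ embryo stood apart in the split between the forms, and with NM_001025093 alone the log2 difference of Atf2 was -0.002.

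Atf7 was 4.26, 4.33, 4.24 and 4.28 FPKM in the Foxf2+/+, Foxf2+/- and the 2 Foxf2-/- embryos. The 4 values were nearly the same, with a log2 difference of -0.01 (95% interval -0.28 to 0.26, adjusted p = 0.977, limma). Creb5 and Atf7 were thus at about the same level in the controls, and Creb5 was the higher of the 2 by several times in the mutants.

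The summed level of Creb5, Atf2 and Atf7 was 41.4 FPKM in the Foxf2+/+ embryo, 40.2 FPKM in the Foxf2+/- embryo, and 43.5 and 48.6 FPKM in the mutants. Creb5 made up 11.6% and 14.6% of this sum in the controls and 29.3% and 31.3% in the mutants. Atf2 stayed the most abundant of the branch in every embryo, at 78.1% and 74.6% in the controls and 61.0% and 59.9% in the mutants. Without Creb5 the sum was 36.6 and 34.3 FPKM in the controls and 30.8 and 33.4 FPKM in the mutants. The shares include the values that chose Creb5 and were not tested.

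**Figure D3:**
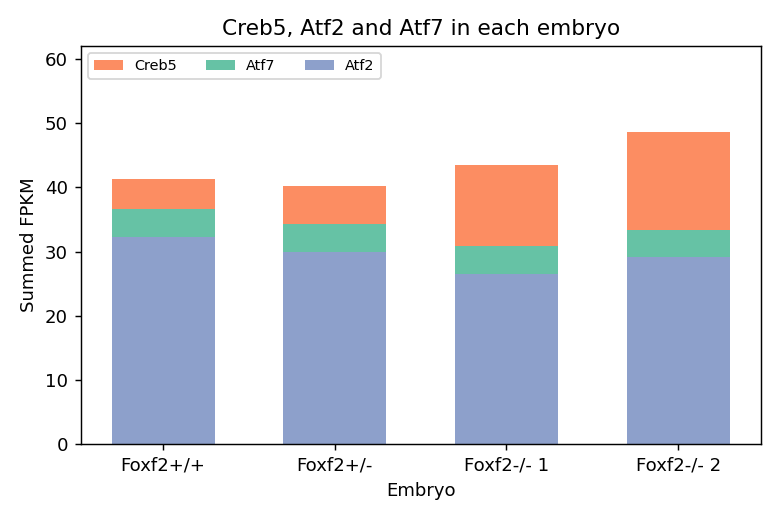
Stacked FPKM of Atf2, Atf7 and Creb5 in each embryo, with the axis from 0. The Creb5 part is 11.6% and 14.6% of the bar for the controls, as against 29.3% and 31.3% for the Foxf2-/- embryos, and the whole bar is between 40.2 and 48.6 FPKM.

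The cAMP-responsive branch was close to level across the embryos. Creb1, the founding member, was 9.15 FPKM in the Foxf2+/+ embryo, 8.25 FPKM in the Foxf2+/- embryo, and 8.04 and 8.76 FPKM in the mutants. The values of the groups interleaved, with a log2 difference of -0.05 (95% interval -0.30 to 0.20, adjusted p = 0.883, limma). Of its 3 entries NM_133828 held the most, at 7.50, 6.96, 5.66 and 6.95 FPKM in the same order.

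Atf1, which pairs with Creb1, was 17.4, 16.3, 16.3 and 18.1 FPKM in the Foxf2+/+, Foxf2+/- and the 2 Foxf2-/- embryos. The mutants spanned the controls, with a log2 difference of 0.03 (95% interval -0.20 to 0.25, adjusted p = 0.936, limma). The sum of Creb1, Crem and Atf1 was 27.8 and 25.8 FPKM in the controls and 25.5 and 27.7 FPKM in the mutants.

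Crem was the least expressed of the 9, at 1.26, 1.21, 1.22 and 0.910 FPKM in that order. Only the second mutant was lower than the rest, and the log2 difference was -0.21 (95% interval -0.78 to 0.36, adjusted p = 0.751, limma). Crem makes activators and repressors from different start sites, and the short repressors called ICER start inside the gene. The 2 entries that begin at the last internal start, 55842 bases downstream of the first, summed to 0.572 and 0.634 FPKM in the controls and 0.303 and 0.282 FPKM in the mutants. Both mutants lay below both controls, a log2 difference of -0.84 that was computed for these entries alone and was not tested. Nearly all of it came from NM_001110855, the Crem entry with the highest mean, whose difference was -0.77 relative to Foxf2+/+ and -0.90 relative to Foxf2+/-. This entry alone would have passed the criterion described above, but its mean of 0.448 FPKM is under the filter. The 8 entries from the first start summed to 0.687, 0.408, 0.774 and 0.627 FPKM. The 2 entries from the last internal start were 45.4% and 52.3% of Crem in the controls and 24.9% and 31.0% in the mutants. The 1 other entry, NM_001110853, begins 38111 bases downstream of the first start. It was 0.170 FPKM in the Foxf2+/- embryo (14.0% of Crem) and 0.140 FPKM in the first mutant (11.5%), with almost nothing in the other embryos. All these values are under 1 FPKM, and how reads are divided among the 11 overlapping entries of Crem is an estimate.

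In the membrane-bound branch, Creb3l2 was the most abundant of all 9 genes, at 37.6 FPKM in the Foxf2+/+ embryo, 32.8 FPKM in the Foxf2+/- embryo, and 36.6 and 40.1 FPKM in the mutants. The groups overlapped, with a log2 difference of 0.13 (95% interval -0.11 to 0.37, adjusted p = 0.638, limma). Creb3, the founder of this branch, was 5.56 and 4.89 FPKM in the controls and 4.38 and 5.24 FPKM in the mutants, and its log2 difference was -0.12 (95% interval -0.44 to 0.20, adjusted p = 0.745, limma). In the annotation 493 of the 2372 exonic bases of Creb3 are shared with Gba2 and Tln1 on the opposite strand, and reads from these genes cannot be told apart there without strand.

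Creb3l1 had the widest spread of the relatives. It was 14.1 FPKM in the Foxf2+/+ embryo and 9.13 FPKM in the Foxf2+/- embryo, and 8.79 and 17.0 FPKM in the mutants. Each group held 1 high and 1 low embryo, so the log2 difference of 0.11 had a 95% interval of -0.61 to 0.83 (adjusted p = 0.911, limma). The sum of the 3 genes of this branch was 57.3, 46.8, 49.8 and 62.4 FPKM in the same order.

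Of the 8 relatives, 0 passed the criterion in either direction, where 1.40% of all genes tested did, and 0 passed limma (adjusted p under 0.05 and over 1.5-fold), where 0.0628% did. None of the 8 had an unadjusted p under 0.05, which 1452 of 11154 genes had. Their log2 differences ran from -0.21 to 0.13 with a median of -0.03, against a median of -0.08 over all genes tested. For 6 of the 8 the 95% interval lay within a change of 1.5-fold either way. For Crem and Creb3l1 it reached beyond 1.5-fold, so a change of that size is not excluded for these 2. The signs of the smallest differences are not stable, since those of Atf7 and Creb1 turned positive when the libraries were rescaled.

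**Figure D4:**
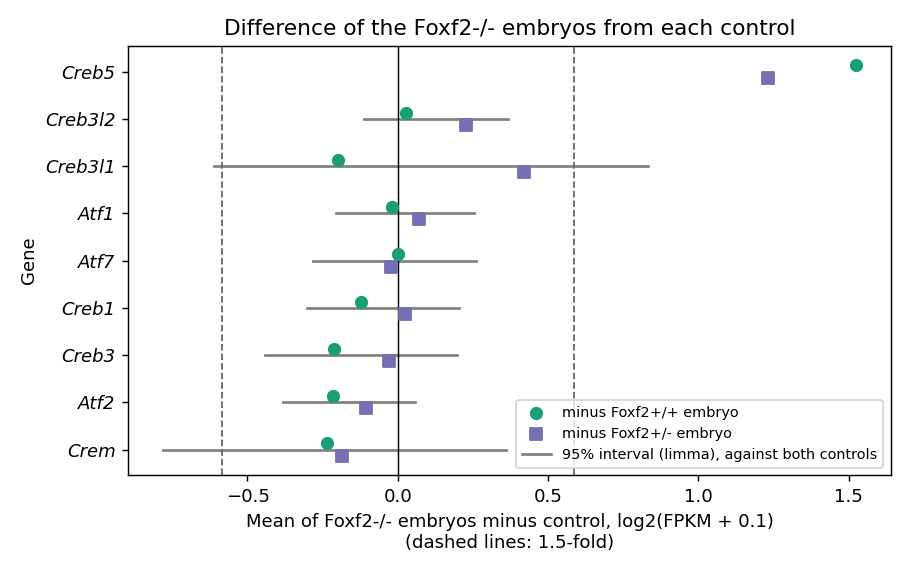
Log2 difference of the Foxf2-/- mean from the Foxf2+/+ embryo (circles) and the Foxf2+/- embryo (squares) for each of the 9 genes, with the limma 95% interval against both controls as a line for the 8 relatives, and dashed lines at 1.5-fold. Creb5 is at 1.52 and 1.23, and no relative has both points beyond a dashed line.

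Ordered by level in the controls, the genes ran Creb3l2, Atf2, Atf1, Creb3l1, Creb1, Creb5, Creb3, Atf7 and Crem. Creb5 was the sixth in the controls and the fourth in the mutants, where it passed Creb1 and, by the mean, Creb3l1. In the controls Creb5 and Creb3 overlapped, as did Creb3l1 and Creb1, and the other neighbours in this order did not. In the mutants Creb5 and Creb3l1 overlapped, since the 2 values of Creb3l1 lay on either side of those of Creb5. Of the summed FPKM of all 9 genes, Creb5 was 3.78% and 5.22% in the controls and 10.7% and 11.0% in the mutants. Among all 11154 genes tested Creb5 was of middling level, with 60.7% of genes below it by mean FPKM.

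The other proteins that Creb5 and its relatives work with were examined in 8 lists. Of 13 other CREB/ATF and related bZIP genes, 9 were tested and 0 passed the criterion in either direction, with a median log2 difference of -0.02. Atf4, the amino acid and stress response factor, was the highest, with 60.9 and 61.1 FPKM in the controls against 45.6 and 55.0 FPKM in the mutants (log2 difference -0.28, adjusted p = 0.347, limma). Atf6b, an endoplasmic reticulum stress factor, was next, at 11.0, 9.07, 8.80 and 13.2 FPKM. Of 7 AP-1 genes, whose products dimerise with the Atf2 branch, 5 were tested and 0 passed, with a median of -0.06. Jun was 9.82, 7.14, 6.91 and 9.37 FPKM and Jund 4.22, 4.06, 4.17 and 4.94 FPKM in the Foxf2+/+, Foxf2+/- and the 2 Foxf2-/- embryos. Neither separated the groups.

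All 5 coactivators were tested and 0 passed, with a median of 0.05. The acetyltransferases Crebbp, with 52.1, 50.3, 54.8 and 55.5 FPKM, and Ep300, at 25.2, 24.8, 27.5 and 24.8 FPKM, were the highest. Of 11 stress-activated kinase genes, 9 were tested and 0 passed, with a median of -0.06. The highest of these were Map2k7, at 15.2, 15.9, 14.1 and 16.9 FPKM, and Map2k4, at 14.5, 14.6, 13.6 and 13.4 FPKM, both of which activate JNK. Their levels differed little between any of the embryos.

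The cAMP and protein kinase A list was the 1 list of the 8 with a gene past the criterion. Of its 29 genes 24 were tested, 1 was higher and 0 were lower (0.717% of all genes were higher), with a median of -0.02. The gene was Pde3a, a phosphodiesterase that breaks down cAMP. Pde3a was 7.84 and 8.44 FPKM in the controls and 12.6 and 13.4 FPKM in the mutants. The mutants lay above both controls, with a log2 difference of 0.67 and an adjusted p of 0.109 by limma, which did not pass. Gnas, which encodes the stimulatory G protein subunit, was 891 and 796 FPKM in the controls and 755 and 802 FPKM in the mutants. Prkaca, a catalytic subunit of protein kinase A, was 38.0 and 34.2 FPKM in the controls and 41.6 and 49.4 FPKM in the mutants, a log2 difference of 0.33 (adjusted p = 0.320, limma).

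Of 21 textbook CRE target genes, 15 were tested and 0 passed, with a median of 0.03. Ier2, an immediate early gene, was 14.3 and 13.4 FPKM in the controls and 10.5 and 12.2 FPKM in the mutants (log2 difference -0.28). Rgs2, a regulator of G protein signaling, was 10.6 and 9.53 FPKM in the controls and 14.2 and 14.1 FPKM in the mutants (log2 difference 0.49, adjusted p = 0.177, limma). These 2 highest genes of the list thus differed in opposite directions, and neither passed.

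Of 4 joint genes, 3 were tested and 0 passed, with a median of -0.17. Prg4 was 3.65 and 4.07 FPKM in the controls and 4.59 and 4.86 FPKM in the mutants. Both mutants lay above both controls, with a log2 difference of 0.29 (adjusted p = 0.389, limma). Sox9, a chondrocyte factor, was 17.2, 15.6, 13.2 and 16.1 FPKM.

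All 10 Creb3-branch protease and secretory genes were tested and 0 passed, with a median of -0.004. Col1a2, a chain of type I collagen, was 370 and 310 FPKM in the controls and 314 and 343 FPKM in the mutants. Col1a1, the other chain, was 272 and 227 FPKM in the controls and 257 and 304 FPKM in the mutants. For both genes the groups overlapped, as they did for Creb3l1 and Creb3l2.

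**Figure D5:**
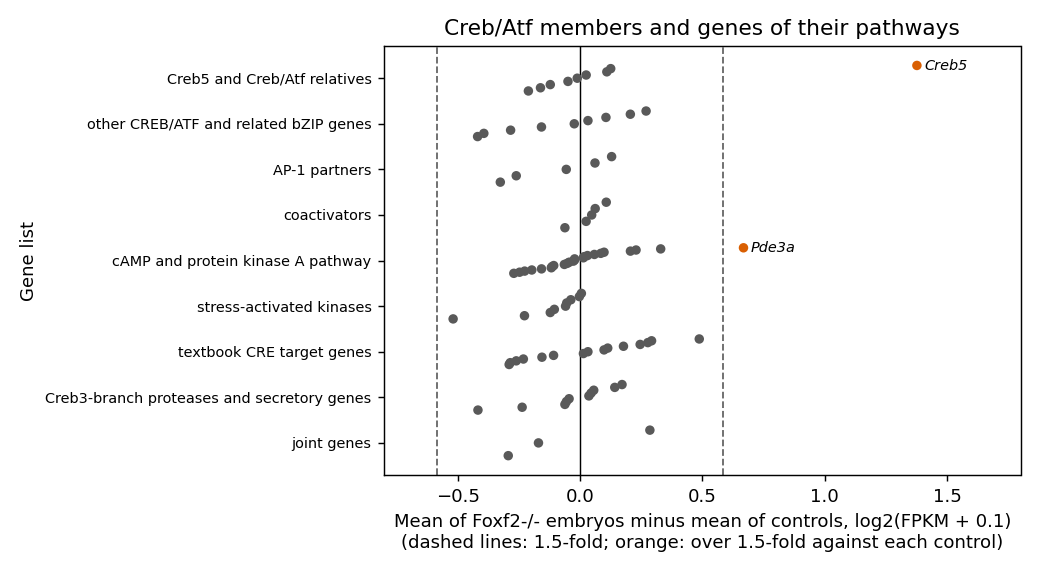
Log2 difference of the Foxf2-/- mean from the control mean for every tested gene of the Creb/Atf group and the 8 lists, 1 point per gene, with dashed lines at 1.5-fold. Points in orange passed the criterion against each control, and these are Creb5 at 1.38 and Pde3a at 0.67.

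The genes whose pattern over the 4 embryos was most like that of Creb5 were found by the Euclidean distance between log2(FPKM + 0.1) profiles, each centred on its own mean, over 11153 other genes. Kirrel3, a cell adhesion protein of the immunoglobulin superfamily, was the nearest at a distance of 0.035, with 1.60, 2.02, 4.54 and 5.35 FPKM in the Foxf2+/+, Foxf2+/- and the 2 Foxf2-/- embryos. Lmo3, a LIM-only protein, followed at 0.077, with 1.21, 1.41, 3.12 and 3.79 FPKM. Both were several times lower in level than Creb5 in every embryo. Lrrtm4, a leucine-rich repeat membrane protein, was next at 0.27, with 0.537, 0.565, 1.70 and 2.03 FPKM. Adamts9, a secreted metalloprotease, was also at 0.27, with 2.72, 3.99, 7.41 and 7.98 FPKM. Foxc2, a forkhead factor, was at 0.27 too, with 0.980, 1.29, 2.23 and 3.05 FPKM. All 5 were higher in both mutants than in both controls, as likeness to Creb5 required, and the median distance over all genes was 1.495. Of the relatives, Creb3l2 was the nearest to Creb5, at a distance of 1.30 and rank 1391.

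The targeted gene followed the labels, with Foxf2 at 85.4 FPKM in the Foxf2+/+ embryo, 45.1 FPKM in the Foxf2+/- embryo, and 1.41 and 2.28 FPKM in the mutants. Osr2, which drives the reporter, was between 129 and 147 FPKM in all 4. The 7 palatal mesenchyme markers summed to between 907 and 1080 FPKM, while all 5 endothelial and all 5 skeletal muscle markers were under 1 FPKM in every embryo. Epithelial markers summed to between 6.55 and 8.05 FPKM, neuronal and glial ones to between 3.55 and 5.53, cartilage ones to between 41.6 and 44.0 and osteoblast ones to between 1.69 and 2.30. All 4 embryos expressed the Y-linked genes examined, with Xist no higher than 0.0455 FPKM. Read counts were not in the files used here, so depth in reads is unknown. The relative depth was 1.19 in the Foxf2+/- library and 1.02 and 1.14 in the Foxf2-/- libraries, taking the Foxf2+/+ library as 1.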

How the data were processed

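RNA from sorted RFP-positive palatal cells of 4 embryos was sequenced as single-end reads from Nextera libraries, for which no strand is stated. The authors aligned the reads to mm9 with Tophat and Bowtie (0.12.7 in the submitters' processing notes) and deposited 1 table per embryo, with an FPKM and a coverage for each RefSeq transcript. The coverage deposited by the authors is a mean read depth over the transcript, a signal not scaled for library size. The version of the program that made the FPKM is not given in the sources used here. No column of other samples was present (0).

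Entries of at least 200 bases were summed by symbol, and 10 genes with a failed estimate were left out. Genes with a mean of at least 1 FPKM were tested on log2(FPKM + 0.1), a scale that makes the fold change of a low gene smaller than it is. FPKM are not counts, so limma 3.58.1 (R 4.3.3, variance trend, both control genotypes as 1 group, Benjamini-Hochberg adjustment over all genes tested, threshold 0.05 and 1.5-fold) was used beside the 1.5-fold criterion against each control. An exact permutation test with 2 embryos a group cannot go below p = 0.333. The limma script was first tested on simulated data. Python 3.11.15, pandas 2.3.3 and matplotlib 3.10.9 were used for the rest. Promoter windows and synonyms came from RefSeq tables on GRCm38.p6.

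The members, lists and tests were chosen with earlier results of these data known. Named genes were the 9 members, in each list the genes past the criterion and the 2 of highest mean, the 5 genes most like Creb5, those within 1000 kb of it, and Foxf2 and Osr2. Pseudocount, filter, summing of entries, scaling, fold threshold, limma design and the embryos included were varied.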

Additional observations from a re-analysis of the deposited data

How the results depend on the processing

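The log2 difference of Creb5 was between 1.23 and 1.52 over 14 alternatives, of which leaving out 1 embryo gave both ends, and 0 relatives passed the criterion under 13 alternatives (8 relatives tested in 11 of them, 6 under the filters at 5 FPKM). Of 100 recomputed values of the relatives 11 changed sign, and of the 92 with an adjusted p 0 were under 0.05 (limma, lowest 0.418). With the entry of highest mean alone, which was not tested, Crem was -0.84 (more than 1.5-fold below each control, with a mean under the filter), Creb1 -0.20 and Atf2 -0.002. When rescaled by median ratios or by the upper quartile, Atf7 was 0.067 and 0.060, Creb1 0.030 and 0.023, and Osr2 0.022 and 0.015. With the Foxf2+/+ or the Foxf2+/- embryo left out, Atf1 ranged from -0.020 to 0.071, Creb1 from -0.12 to 0.025 and Creb3l1 from -0.20 to 0.42. With either Foxf2-/- embryo left out, Atf1 ranged from -0.051 to 0.10, Creb1 from -0.11 to 0.012, Creb3 from -0.25 to 0.0055, Crem from -0.40 to -0.019, Creb3l1 from -0.36 to 0.58 and Osr2 from -0.16 to 0.039. The cause of these changes of sign was not tested.

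The criterion, 156 genes in the reported setting, was met by 49 genes with at least 5 FPKM in at least 1 embryo, 36 with a mean of at least 5 FPKM, 639 without a filter, 291 with all entries summed, 36 at 2-fold, 67 with a pseudocount of 1, and between 213 and 572 with 1 embryo left out (572 without the Foxf2+/- embryo, 292 without the Foxf2+/+ embryo, 213 and 240 without a Foxf2-/- embryo). The share of higher genes among those called was 51.3% (80 higher, 76 lower), 64.3% after median ratio scaling (92 and 51) and 62.3% after upper quartile scaling (91 and 55). It was 75% with a mean of at least 5 FPKM (27 and 9), 69.4% with at least 5 FPKM in 1 embryo (34 and 15) and 62.7% with a pseudocount of 1 (42 and 25). With a pseudocount of 0.01 it was 47.6% (81 and 89), so the balance turned toward lower genes. Leaving out the Foxf2+/-, the Foxf2+/+ or the second Foxf2-/- embryo also turned the balance toward lower genes. Leaving out the first Foxf2-/- embryo did not. limma called 7 genes, and 20 with a separate mean for each genotype, 27 with all entries summed, 13 with a pseudocount of 1, 12 after upper quartile scaling, 0 without a filter (1966 at an unadjusted p under 0.05), 0 without a variance trend (1264), and between 7 and 38 with 1 embryo left out (38 without the Foxf2+/- embryo).

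Each control genotype had 1 embryo, so the spread within a control genotype was not measured. Where 1 embryo of a group was left out, the lone embryo was assumed to vary like the other group. No paired analysis was possible because only the Foxf2-/- embryos carry replicate numbers.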

Other observations

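Some genes of the cAMP and CRE lists fell under the filter of a mean of at least 1 FPKM and were therefore not tested, and these 2 were picked after their values were seen. Pde8a, a phosphodiesterase specific for cAMP, was 1.06 and 0.903 FPKM in the Foxf2+/+ and Foxf2+/- embryos and 0.470 and 0.481 FPKM in the Foxf2-/- embryos, a log2 difference of -0.90. Nr4a3, an orphan nuclear receptor induced through CREs, was 0.0322 and 0.330 FPKM in the controls and 0.599 and 0.504 FPKM in the mutants.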
